A study of Homo sapiens with 41 samples.

Results

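CD44 and 9 integrin subunit genes (ITGA2, ITGA3, ITGA5, ITGA6, ITGAV, ITGB1, ITGB3, ITGB4 and ITGB5) were followed through 32 peak lists from MDA-MB-231, an established human line derived from a triple-negative breast cancer. The genes were chosen by name, as 10 of 19974 protein-coding genes, and each was read over a window of the gene body and 10 kb on each side at its GRCh38 position. The series has 41 samples, of which 32 came with peaks and 9 were not analysed here. The groups were cells given 5 µM Nexturastat A (NextA), an HDAC6 inhibitor, for 2 days, set against cells without inhibitor (control), and cells with a hairpin against HDAC6 (shHDAC6), set against cells with a control hairpin (shCtrl). The labels of NextA and control cells name no hairpin, and these cells are called parental here. ATAC-seq, which marks accessible chromatin, covered NextA, control, shHDAC6 and shCtrl cells with 3 lists each, and ChIP-seq of RNA polymerase II (PolII) covered the same 4 groups with 2 lists each. ChIP-seq with an antibody against acetylated lysine in any protein (pan-acetyl) covered NextA and control cells with 2 lists each. ChIP-seq of HDAC6 covered NextA, shHDAC6 and control cells with 2 lists each, and CUT&Tag, in which an antibody guides a transposase, gave 2 further HDAC6 lists from control cells. Each library came from 100000 cells, and every label names this same line. In HDAC6 ChIP, list 1 of NextA and of control used a CST antibody and list 2 a Novus antibody, and both shHDAC6 lists and both CUT&Tag lists used Novus. The labels give neither the hairpin sequence nor whether a line is 1 clone, and no label says whether the replicates were cultured apart. The p-values therefore measure the spread between these lists alone, which may be technical. Peak lists of chromatin do not measure the HDAC6 transcript, so they do not check the knockdown.

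Integrins are pairs of an alpha and a beta subunit that span the cell membrane, bind extracellular matrix outside and link to actin or keratin filaments inside through adaptors such as talin. ITGB1 pairs with ITGA2 to bind collagen, with ITGA3 or ITGA6 to bind laminin and with ITGA5 to bind fibronectin, whereas ITGAV pairs with ITGB3 or ITGB5 to bind vitronectin and other ligands with an RGD motif. ITGA6 with ITGB4 anchors epithelial cells in hemidesmosomes. CD44 is the main cell-surface receptor for hyaluronan, and abundant CD44 is a known feature of MDA-MB-231 and other mesenchymal-like breast cancer lines. HDAC6 is a deacetylase whose main known substrates, such as tubulin, are cytoplasmic.

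The lists differed in ways that the labels do not give. Read depth was unknown. ATAC lists held 25878 to 79666 peaks, PolII lists 19519 to 31198, pan-acetyl lists 1418 to 61186, and HDAC6 ChIP lists 235 and 3256 with NextA, 12152 and 16441 with shHDAC6 and 28590 and 63833 in control. In NextA and control cells, list 1 overlapped the other lists of its own group by a Jaccard index of covered bases of 0.291 to 0.313 in ATAC, against 0.502 and 0.513 between lists 2 and 3. In hairpin ATAC lists of a group the index was 0.508 to 0.529. For HDAC6 ChIP the 2 lists of a group overlapped by 0.00166 to 0.0402. The 9p21 region that holds MTAP, CDKN2A and CDKN2B (chr9:21802636-22009313), which is known to be deleted in MDA-MB-231, was looked at after values had been seen. It held 0 peaks in list 1 of both ATAC, both PolII and both pan-acetyl groups of NextA and control cells. In the other lists of these cells it held 4 to 5 peaks in ATAC, 7 with NextA against 5 in control in PolII, and 7 with NextA against 2 in control in pan-acetyl. All 10 hairpin PolII and ATAC lists held 4 to 6. HDAC6 ChIP lists held 0 with NextA and with shHDAC6, against 1 and 5 in control, and the CUT&Tag lists held 2 and 3. The HDAC6 NextA list 2 carries a peak-name prefix otherwise found in the shCtrl PolII lists, and a CUT&Tag list labelled control carries a prefix with "shc". Results of NextA are therefore also given for list 1 alone and for the other lists, and the part of these differences in any result was not tested. Whether all lists come from the labelled line was not tested either. Among genes that mark mesenchymal-like breast lines, VIM and CAV1 had an ATAC peak at the start in 6 of 6 parental lists and 6 of 6 hairpin lists, whereas AXL had one in 3 of 6 parental lists and 0 of 6 hairpin lists. For 7 luminal epithelial markers the start counts were 3 to 5 with NextA, 4 in control, 0 to 4 in shHDAC6 and 1 to 4 in shCtrl, and the endothelial markers CDH5 and VWF had no start peak in any ATAC or PolII list, while PECAM1 had one in 1 of 6 parental ATAC and 1 of 4 parental PolII lists. The leukocyte genes ITGAM and PTPRC had none. ITGB2 had an ATAC start peak in 6 and CD3E in 5 of 6 parental lists, both in 0 of 6 hairpin lists, and ITGAL had a PolII start peak in all 4 parental and all 4 hairpin lists.

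Sequences upstream of 5 starts are shown because they differ in how many lists held a peak there, from 3 to 27 of 32. The CD44 start had a peak in 13 lists, none of them a hairpin ATAC list. The ITGA2 and ITGAV starts had a peak in 25 lists each, among them all 12 ATAC and all 8 PolII lists. ITGB5 has several starts. The outermost had a peak in 3 lists, and the inner starts at chr3:124887684 and chr3:124887365 each had a peak in 27. Of these inner starts only the first is printed, and it is called the inner one below. The 250 bases before each start are from the RefSeq promoter table of GRCh38.p14, 5′ to 3′ on the gene's strand: CD44 at chr11:35138921-35139170 (plus), ITGA2 at chr5:52989102-52989351 (plus), ITGAV at chr2:186589806-186590055 (plus), the outermost ITGB5 start at chr3:124901419-124901668 (minus) and the inner ITGB5 start at chr3:124887685-124887934 (minus). Capitals mark GGGCGG on either strand (CCGCCC when read on the other strand), the core of a GC box.
CD44: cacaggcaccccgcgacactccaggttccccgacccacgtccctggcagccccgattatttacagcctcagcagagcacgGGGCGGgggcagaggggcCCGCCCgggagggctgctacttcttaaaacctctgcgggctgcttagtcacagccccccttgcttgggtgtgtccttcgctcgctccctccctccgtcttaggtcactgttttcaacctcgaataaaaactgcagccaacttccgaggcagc
ITGA2: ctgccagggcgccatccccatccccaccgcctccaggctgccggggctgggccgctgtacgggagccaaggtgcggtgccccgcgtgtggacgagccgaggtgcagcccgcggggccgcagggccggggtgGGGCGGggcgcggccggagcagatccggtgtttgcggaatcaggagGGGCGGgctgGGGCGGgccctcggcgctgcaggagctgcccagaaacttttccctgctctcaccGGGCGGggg
ITGAV: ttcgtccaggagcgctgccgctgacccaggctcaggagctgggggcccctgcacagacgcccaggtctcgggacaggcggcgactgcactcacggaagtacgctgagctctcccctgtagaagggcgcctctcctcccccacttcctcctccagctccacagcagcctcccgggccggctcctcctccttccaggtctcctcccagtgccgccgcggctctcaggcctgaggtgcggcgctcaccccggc
ITGB5 outermost: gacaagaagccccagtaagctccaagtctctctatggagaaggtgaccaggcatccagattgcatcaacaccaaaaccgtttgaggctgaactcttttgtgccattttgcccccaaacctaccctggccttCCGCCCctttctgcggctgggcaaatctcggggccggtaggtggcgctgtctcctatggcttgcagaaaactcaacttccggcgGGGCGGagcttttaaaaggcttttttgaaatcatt
ITGB5 inner: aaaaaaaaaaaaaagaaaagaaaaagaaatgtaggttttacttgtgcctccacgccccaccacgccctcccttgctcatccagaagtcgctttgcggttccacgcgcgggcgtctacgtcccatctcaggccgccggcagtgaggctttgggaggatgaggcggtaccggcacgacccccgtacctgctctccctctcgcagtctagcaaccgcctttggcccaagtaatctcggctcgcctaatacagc
The G and C content was 62.4% at CD44, 76.4% at ITGA2, 70.8% at ITGAV, 52.8% at the outermost ITGB5 start and 56.4% at the inner one, beside a median of 58% over all 35116 promoters of the table. CG dinucleotides numbered 15 at CD44, 26 at ITGA2, 18 at ITGAV, 9 at the outermost and 19 at the inner ITGB5 start, beside a median of 11. GGGCGG, searched on both strands, stood 2 times at CD44, 4 times at ITGA2, 0 times at ITGAV, 2 times at the outermost and 0 times at the inner ITGB5 start, and 42.6% of all promoters held it. TGANTCA, the AP-1 letters, was in none of the 12 member windows of this length, and 6.57% of all promoters held it. The ITGB5 start at chr3:124887365, not printed, had a G and C content of 75.2%, 23 CG dinucleotides and 3 matches of GGGCGG. Such matches describe letters and not sites. The table held 7 of the 10 genes, and ITGA3, ITGB3 and ITGB4 were not among them.

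The 10 genes held 874 peaks over the 32 lists, 678 of them overlapping the gene body. They are long, with a median length of 69.5 kb against 24.2 kb for all protein-coding genes, and 9 of the 10 exceeded that median. Window counts are read with that in mind, because the shares of all genes given beside the calls were not matched for length. A peak within 1 kb of the start was found in 25 of 32 lists for ITGA2 and ITGAV, 24 for ITGA6 and ITGB1, 23 for ITGA3, 21 for ITGB3, 17 for ITGA5, 13 for CD44, 7 for ITGB4 and 3 for the outermost ITGB5 start. Neighbours in this order differ by at most 2 lists down to ITGB3, and the gaps to ITGA5, CD44 and ITGB4 are 4, 4 and 6 lists. The start of ITGA3, ITGB3 and ITGB4 was taken as whichever end of the gene was marked by more lists, because these genes have no strand in the tables used. Their other end had a peak in 2, 1 and 4 lists. Counts of lists at these starts, here and below, can be raised by that choice. Strength is given as the percentile of a peak's fold over background, as the authors deposited it, within its own list, where 100 is the strongest peak. It ranks peaks inside a list and shows no change between lists. ITGAV had the strongest starts in ATAC, between the 70.8th and the 98.1st percentile in all 12 lists, and in PolII it stood between 74.8 and 95.6. ITGB1, the shared beta subunit, stood between 69.3 and 97.9 in PolII and between 4.69 and 94.9 in ATAC. The CD44 start ranked low in ATAC, at 28.0, 16.3 and 31.7 with NextA and 31.3, 3.02 and 16.4 in control.

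**Figure D1:**
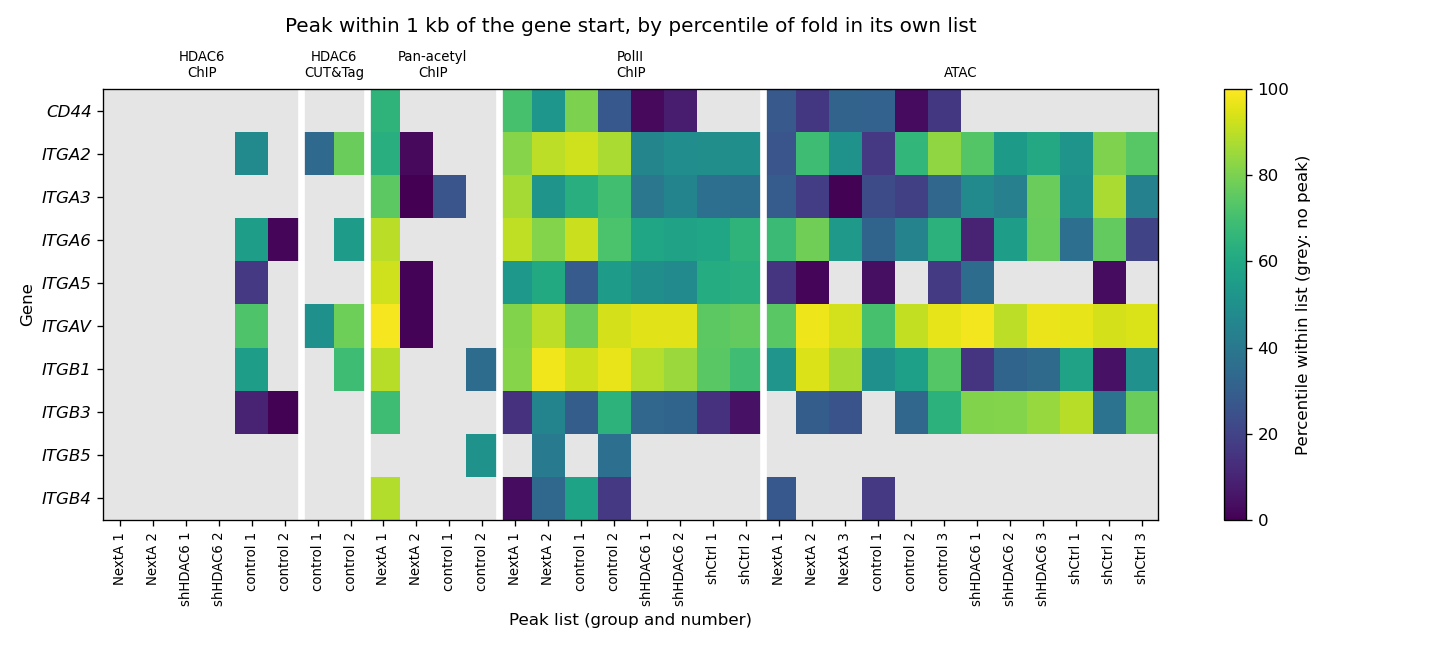
Percentile of the strongest peak within 1 kb of the gene start (colour; grey where a list has no peak there) for 10 genes (rows) in 32 peak lists (columns, by assay, group and number). ITGAV is bright in every ATAC and PolII list, CD44 is grey in the 6 hairpin ATAC lists and both shCtrl PolII lists, and the HDAC6 columns of NextA and shHDAC6 are grey for every gene.

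The CD44 locus (chr11:35139171-35232402, 93.2 kb) had ATAC peaks in every parental list and in no hairpin list. Its window held 10, 5 and 5 ATAC peaks in NextA lists, against 10, 4 and 5 in control lists, a mean of 6.67 ± 2.89 against 6.33 ± 3.21 (SD, n = 3 each). It held 0, 0 and 0 in shHDAC6 lists and 0, 0 and 0 in shCtrl lists. NextA and control overlapped, hairpin lists were all at 0, and shHDAC6 did not differ from shCtrl. In shCtrl against control lists, a comparison added after values were seen, the CD44 start was lost (a peak in every control list and in no shCtrl list) and the window had fewer peaks (every shCtrl list below every control list, exact permutation two-sided p = 0.1, adjusted p = 0.717 over all genes). Of all 19974 genes, 1.43% had a start lost in that comparison and 13.1% had fewer peaks. Both calls held against control lists 2 and 3 alone. With a −log10 q of at least 5, and with lists cut to equal length, no start was called lost. AXL and the luminal marker EPCAM each had an ATAC start peak in 3 of 6 parental lists and in 0 of 6 hairpin lists. Of 5 mesenchymal-like markers, 4 to 5 had one with NextA and 3 to 5 in control, against 2 in every hairpin list. Those 2 were VIM and CAV1. Of 7 luminal markers, 3 to 5 had one with NextA and 4 in control. With hairpins 0 to 4 did in shHDAC6 lists and 1 to 4 in shCtrl lists. The 9p21 region held peaks in all 6 hairpin lists and in parental lists 2 and 3, and none in parental list 1. The part of these differences in the CD44 result was not tested.

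PolII peaks at CD44 were found in every parental and shHDAC6 list and in no shCtrl list. The window held 31 and 1 PolII peaks in NextA lists, against 3 and 1 in control lists. It held 1 and 1 in shHDAC6 lists, against 0 and 0 in shCtrl lists. Both shHDAC6 peaks lay at the start and were among the weakest of their lists, at the 2.54th and 7.54th percentile, while the start stood at 70.8 and 52.7 with NextA and 80.4 and 27.4 in control. By the rule the CD44 start was gained with shHDAC6 (a peak in every shHDAC6 list and in no shCtrl list) and its window had more peaks (two-sided exact permutation, p = 0.333 and adjusted p = 1, where 0.333 is the lowest p possible with 2 lists a group). No ATAC list of shHDAC6 had a peak there.

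**Figure D2:**
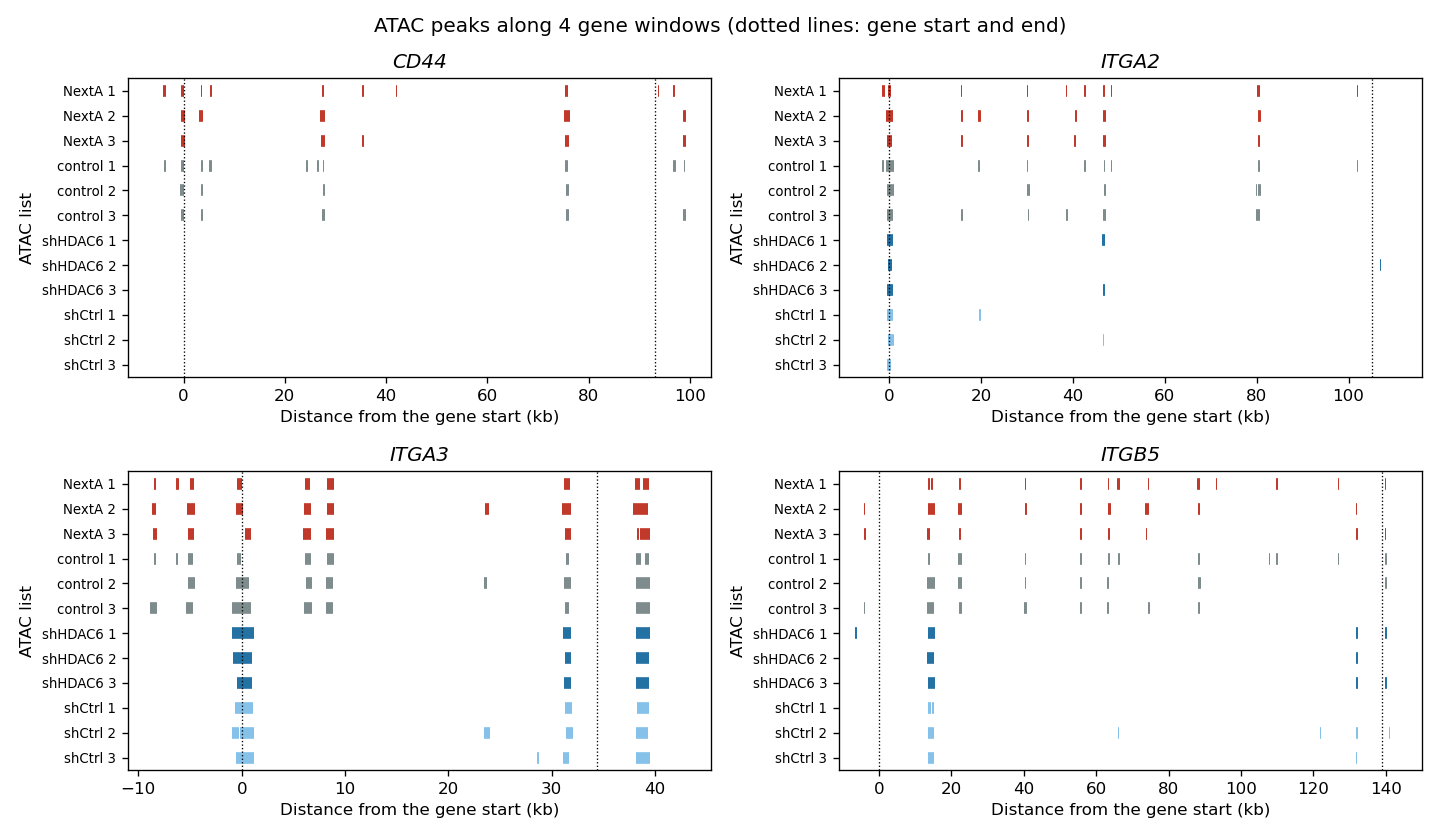
Position of ATAC peaks (x axis, distance from the gene start in kb; bars show peak width) in 12 lists (rows: NextA red, control grey, shHDAC6 dark blue, shCtrl light blue) for CD44, ITGA2, ITGA3 and ITGB5. Peaks at the starts of ITGA2 and ITGA3 and at the inner starts of ITGB5 run through all 12 lists. Many peaks inside the genes appear in the 6 NextA and control lists alone, and the hairpin rows of CD44 are empty.

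With NextA no gene window had more or fewer ATAC peaks and no start was lost or gained. ITGB5, the vitronectin-binding beta subunit, had the most peaks, 14, 9 and 8 with NextA against 11, 7 and 8 in control, a mean of 10.3 ± 3.21 against 8.67 ± 2.08 (SD, n = 3 each; exact permutation two-sided p = 0.6). ITGA2 had 11, 7 and 6 with NextA against 10, 5 and 6 in control, and ITGA3 had 9, 8 and 8 with NextA against 9, 7 and 7 in control. List 1 was the highest of its group for each of these 3 genes in both groups. The smallest p that 3 lists against 3 allow is 0.1, so no gene could pass an adjusted threshold of 0.05. Over all genes, 1.85% had more and 0.16% fewer peaks with NextA, 0.0451% had a start lost and 0.0551% a start gained. Within list 1 alone, 3 genes had more (ITGA2, ITGB1 and ITGB5; 29.1% of all genes) and 2 fewer (ITGA5 and ITGB4; 19.2%). Within lists 2 and 3, which is the same as leaving out list 1 of both groups, ITGA3 had more (14.8% of all genes) and none had fewer (2.95%). Leaving out control list 1 alone also gave 1 gene with more, and the share of all genes in that setting is not given. The submitters' peak numbering shows that 21.1% and 21.3% of numbered peaks were kept in NextA lists 2 and 3, against 3.91% and 3.9% in control lists 2 and 3, and the part of this in the counts was not tested.

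**Figure D3:**
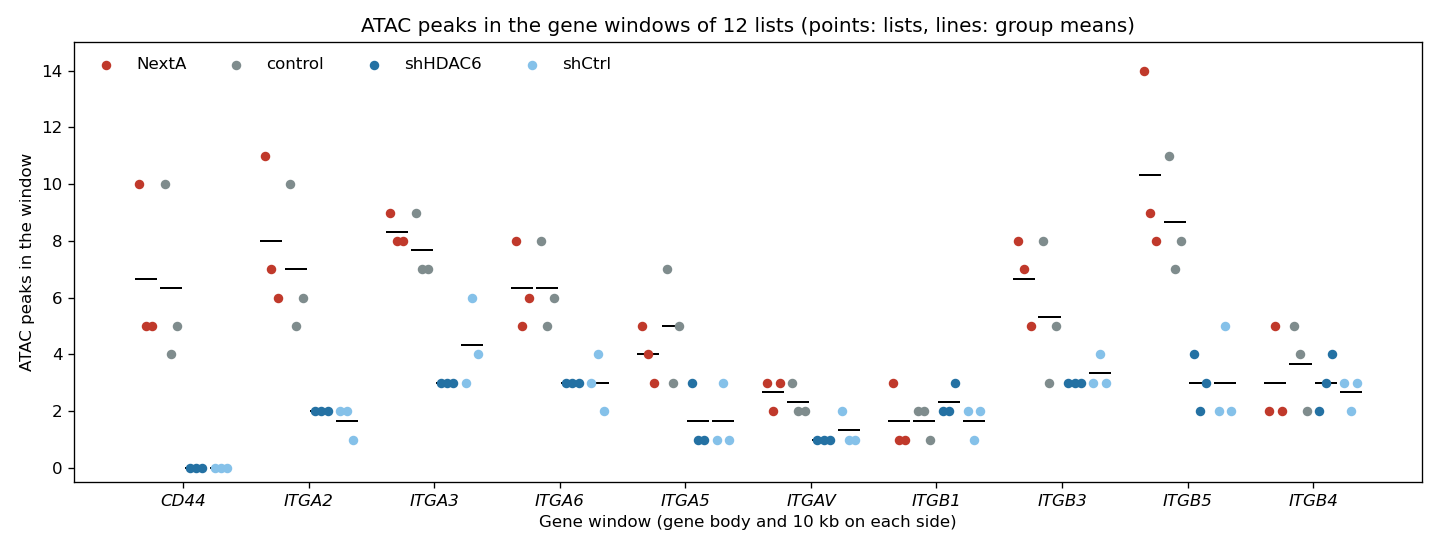
ATAC peaks in each gene window (y axis) for the 10 genes (x axis), as points for the 3 lists of NextA (red), control (grey), shHDAC6 (dark blue) and shCtrl (light blue), with group means as lines. NextA and control overlap at every gene, shHDAC6 and shCtrl overlap at every gene, and CD44, ITGA2, ITGA3, ITGA6 and ITGB5 have lower counts in all shCtrl lists than in all control lists.

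With shHDAC6 no gene window had more or fewer ATAC peaks than with shCtrl, and no start was lost or gained. ITGA2 had 2, 2 and 2 peaks with shHDAC6 against 2, 2 and 1 with shCtrl, ITGB5 had 4, 2 and 3 against 2, 5 and 2, and ITGA3 had 3, 3 and 3 against 3, 6 and 4. ITGB3, the beta subunit of platelets and of some invasive tumour cells, had 3, 3 and 3 against 3, 4 and 3. Over all genes 0.596% had more and 1.59% fewer peaks with shHDAC6, 0.195% had a start lost and 0.19% a start gained. The 2 hairpin groups overlapped at all 10 genes.

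The shCtrl lists held fewer ATAC peaks than the control lists at 5 of the 10 genes, where 13.1% of all genes did. That share was not matched for length, and the 10 genes are longer, with a median of 69.5 kb against 24.2 kb. The part of gene length in this count was not tested. These were CD44, ITGA2 (2, 2 and 1 in shCtrl, against 10, 5 and 6 in control), ITGA3 (3, 6 and 4, against 9, 7 and 7), ITGA6 (3, 4 and 2, against 8, 5 and 6) and ITGB5 (2, 5 and 2, against 11, 7 and 8). No window had more, where 0.801% of all genes did, and no start was gained, where 0.29% did. The shCtrl lists are also shorter, with 28883 to 32998 peaks against 42113 to 74018, and with each list cut to the same number of strongest peaks 2 genes had fewer and the CD44 start was no longer called lost. The ATAC starts of ITGA2, ITGA3, ITGA6, ITGAV and ITGB1 had a peak in all 12 lists.

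The ATAC peaks in the 10 windows merged into 98 regions, of which 10 were found in all 12 lists, 13 in the 6 NextA and control lists and no hairpin list, and 1 in the 6 hairpin lists and no other. These are 10.2%, 13.3% and 1.02% of the regions, and over the genome 8%, 3.62% and 0.0575% of 139237 merged regions fell in those classes. Of the 10 shared regions 5 lay at the outermost start of a gene and that of ITGB5 at its inner starts. Of the 13 parental ones 1 lay at an outermost start (CD44), 11 lay inside a gene and 1 beside it. At CD44 the parental regions lay at the start, 27.5 kb inside (5.73rd to 80th percentile) and 75.8 kb inside (76.7 to 99.1), the last of these overlapping CD44-AS1. ITGA2 had them 30.3 kb and 80.4 kb inside, and the region at 80.4 kb stood between the 71st and the 99.9th percentile. ITGB5 had 3, at 22.4, 55.8 and 63.6 kb, ITGA3 had 3, at -4.94, 6.36 and 8.53 kb, ITGA5 had 1 at 7.53 kb and ITGB3 had 1 at 25.8 kb. The hairpin region lay 23.3 kb inside ITGB3 (chr17:47276626-47277555), with no peak of any other assay on it. PolII peaks of shHDAC6 or shCtrl cells lay on 8 of the 10 shared and 3 of the 13 parental regions. The region over the inner starts of ITGB5 (chr3:124885782-124888073) was marked most widely. It had peaks in all 12 ATAC, all 8 PolII, all 4 control HDAC6 and 3 of 4 pan-acetyl lists. Other genes share some windows. The region 70.3 kb from the ITGB3 start is at EFCAB13, and that 38.7 kb from the ITGA3 start is at PDK2. The regions 32.6, 37.4 and 43.5 kb from the ITGB4 start are at GALK1.

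RNA polymerase II marked the starts of 9 of the 10 genes in both NextA and both control lists. The outermost ITGB5 start was the exception, with a peak in list 2 of each group alone. No start was lost or gained with NextA, where 0.0451% and 0.285% of all genes were. ITGB4, the hemidesmosome beta subunit, was the only gene with more peaks, 5 and 5 with NextA against 2 and 3 in control (exact permutation two-sided p = 0.333, adjusted p = 1), where 5.75% of all genes had more, and no gene had fewer, where 0.706% did. GALK1 shares the ITGB4 window, and the ATAC region 37.4 kb from the ITGB4 start overlaps it. PolII peaks lay on that region in both NextA lists and in no control list. In list 1 alone 7 genes had more peaks (29.2% of all genes) and ITGA3 fewer (9.41%). In list 2 alone ITGB1, ITGB5 and ITGB4 had more (21.4%) and ITGB3 fewer (13.2%). With a −log10 q of at least 5, and with lists cut to equal length, no gene was called. Without NextA list 2, 6 genes had more, without control list 1, 3 had more, and without control list 2, 2 had more. A call is easier to reach with a list left out, and the shares of all genes so called are not given.

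NextA list 1 stood apart in how much of the gene body PolII peaks covered. Over CD44 it held 31 peaks covering 48.5 kb of the window, against 0.997 kb in NextA list 2, 3.68 kb in control list 1 and 0.886 kb in control list 2. Over ITGA2 it held 25 peaks covering 45.8 kb, against 1.5 kb in NextA list 2, 1.27 kb in control list 1 and 1.57 kb in control list 2. As a share of the body these were 50.6% and 38.5%. ITGA3 was covered over 97.5% of its body in NextA list 1 and 3.92% in NextA list 2, against 94.9% in control list 1 and 3.94% in control list 2, so its wide coverage came with list 1 of both groups. Peaks covered over 20% of the body at 3 of the 10 genes in NextA list 1 and 0 in NextA list 2, against 1 in control list 1 and 0 in control list 2. Over all genes the shares were 13.7% and 12.5% with NextA, against 8.24% and 9.37% in control. Among the 7 of the 10 genes that are at least 50 kb long, which leaves out ITGA3, the count was 2 in NextA list 1 and 0 in NextA list 2 and in both control lists. Of all 6258 genes of that length the shares were 2.17% and 0.272% with NextA, against 0.607% and 0.032% in control. The 2 NextA lists were thus far apart at CD44, ITGA2 and ITGA3. At ITGB4 peaks covered 5% and 7.87% of the body with NextA, against 0.578% and 4.18% in control. GALK1 shares part of that body, and how many of all genes separated in this way was not counted.

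**Figure D4:**
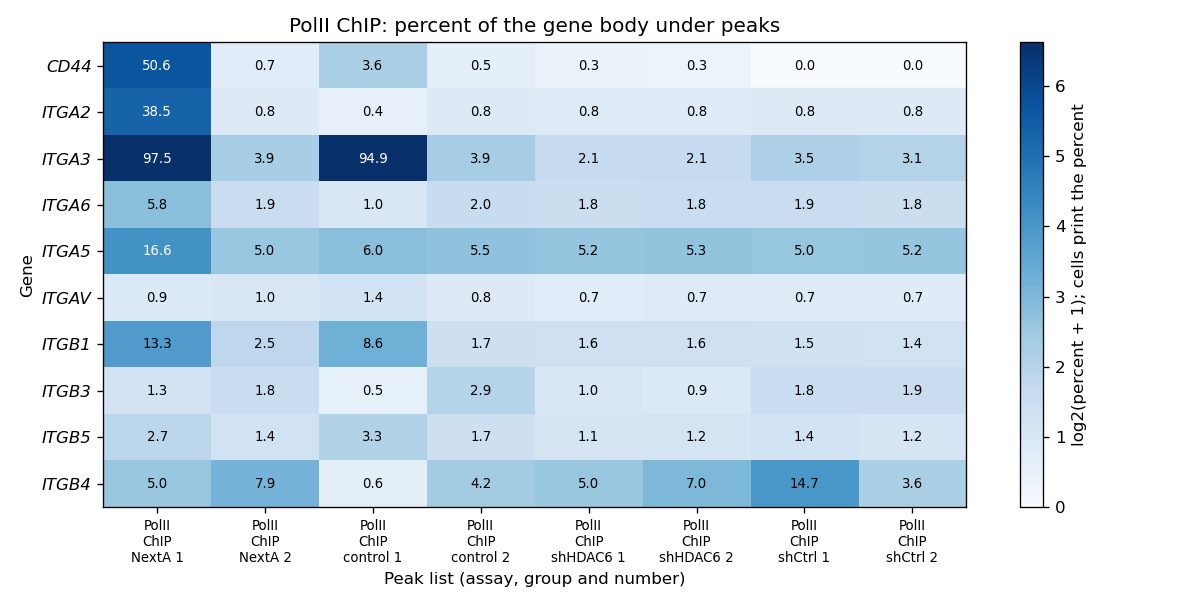
Percent of each gene body covered by PolII peaks (printed in the cells; colour on a log2 scale) for 10 genes in 8 lists. CD44 and ITGA2 are widely covered in NextA list 1 alone, and ITGA3 in list 1 of both NextA and control.

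Between the hairpins, PolII windows of 4 genes had fewer peaks with shHDAC6 than with shCtrl, and CD44 had more. ITGA3 had 3 and 3 with shHDAC6 against 4 and 4 with shCtrl, ITGA5, the fibronectin-binding alpha subunit, 2 and 2 against 5 and 3, ITGB3 2 and 2 against 3 and 3, and ITGB5 1 and 1 against 3 and 2. Each difference had the smallest p of this design, 0.333 (exact permutation, two-sided, adjusted p = 1). Of all genes 10.2% had fewer and 3.5% more peaks, 0.596% had a start lost and 0.821% a start gained. The starts of 7 genes had a peak in all 4 hairpin lists, and the starts of ITGB5 (outermost) and ITGB4 in none. Of the 7 starts, 4 stood at higher percentiles in both shHDAC6 lists than in both shCtrl lists (ITGAV, ITGB1, ITGA3 and ITGB3), and 3 at lower ones (ITGA2, ITGA5 and ITGA6), which are ranks within lists and show no change. At ITGAV they were 95.6 and 95.4 with shHDAC6, and 74.8 and 76.1 with shCtrl. At ITGA5 they were 49.9 and 48 with shHDAC6, and 62 and 62.9 with shCtrl. The gap was small at ITGA2, with 45.7 and 49.2 against 49.5 and 49.9. The 2 lists of a group were alike, with a Jaccard index of 0.81 in shHDAC6 and 0.799 in shCtrl. How many of all genes separated in this way was not counted, so these counts are a description only. With peaks of a −log10 q of at least 5 alone, none of the 4 fewer calls remained. In shCtrl against control PolII lists, also added after values were seen, the starts of CD44 and ITGB4 were lost (1.22% of all genes) and none was gained (0.606%), CD44 had fewer peaks (4.78%) and none had more (8.94%). Without control list 1, 3 genes had fewer and 3 starts were lost, and without control list 2, 5 genes had fewer. For these left-out settings the shares of all genes are not given. These comparisons share shCtrl or control lists with those above.

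HDAC6 peaks in the 10 windows were nearly absent outside control lists. The windows held 0 and 1 HDAC6 ChIP peaks in NextA lists and 3 and 1 in shHDAC6 lists, against 20 and 24 in control lists, and the CUT&Tag control lists held 12 and 11. All 10 genes had a peak in control list 1 (73.5% of all genes), 8 in control list 2 (68.3%), and 8 and 7 in CUT&Tag (57.5% and 69.4%). With NextA 8 genes had fewer HDAC6 peaks, all but ITGA3 and ITGA5 (exact permutation two-sided p = 0.333, adjusted p = 0.662), where 50.3% of all genes had fewer. The starts of ITGA6 and ITGB3 were lost, where 13.5% of all starts were, and none had more peaks or a start gained, as over all genes (0% and 0%). The NextA lists held only 3256 and 235 peaks in the whole genome, and with lists cut to equal length no gene was called. The submitters' peak numbering shows that 0.103% of numbered peaks were kept in NextA list 2, against 23.2% in control list 2. In list 1 the shares kept were 94.7% with NextA and 99.2% in control. The part of this in the HDAC6 counts was not tested. Lists of equal length hold at most 235 peaks each, so a loss at these genes could hardly be called whatever the data. List 1 alone had fewer peaks at all 10 genes (70.8% of all genes) and a start lost at 6 (48.3%), and list 2 alone had fewer peaks at 8 (68%) and a start lost at 2 (21.6%). Without control list 2, 6 starts were lost, and the share of all genes in that setting is not given. The highest −log10 q of a peak in these windows was 2.3 and 0.145 in control ChIP lists and 2.84 and 3.78 in CUT&Tag. None thus passed a −log10 q of at least 5. Over the genome 654 of 28590 and 26 of 63833 control ChIP peaks did, and 1678 of 14458 and 3104 of 22481 CUT&Tag peaks. The median percentile of the peaks in these windows was 40.1 and 44.3 in control ChIP and 23.7 and 68.9 in CUT&Tag.

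The 2 control ChIP lists differed in where HDAC6 peaks lay, with 1 list per antibody. The CST list had peaks at 6 of the 10 starts (ITGA2, ITGA6, ITGA5, ITGAV, ITGB1 and ITGB3), where 52.2% of all genes had one, and 13 of its 20 peaks lay on a control ATAC peak. The Novus list had 2 starts (ITGA6 and ITGB3), where 21.7% of all genes had one, and 4 of its 24 peaks lay on one. Over the genome 56.4% of CST and 8.24% of Novus control peaks did. CUT&Tag, also with the Novus antibody, placed 11 of 12 and 10 of 11 peaks on control ATAC peaks (77.6% and 64.9% over the genome), with 2 and 4 starts marked (36.9% and 47.1% of all genes), ITGA2 and ITGAV in both lists. At ITGA2 the CUT&Tag start peaks spanned chr5:52989289-52989633 and chr5:52989294-52990023, at the 34.1st and 77.3rd percentile. At the inner ITGB5 starts both ChIP and both CUT&Tag control lists had a peak. The 4 genes with a HDAC6 peak after knockdown were ITGA3, ITGAV, ITGB3 and ITGB5, with −log10 q of at most 0.0842. They were 3 and 1 of 10 in the 2 lists, where 34% and 23.7% of all genes had a peak. No HDAC6 list of shCtrl cells was among the lists, so knockdown was set against no hairpin reference.

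**Figure D5:**
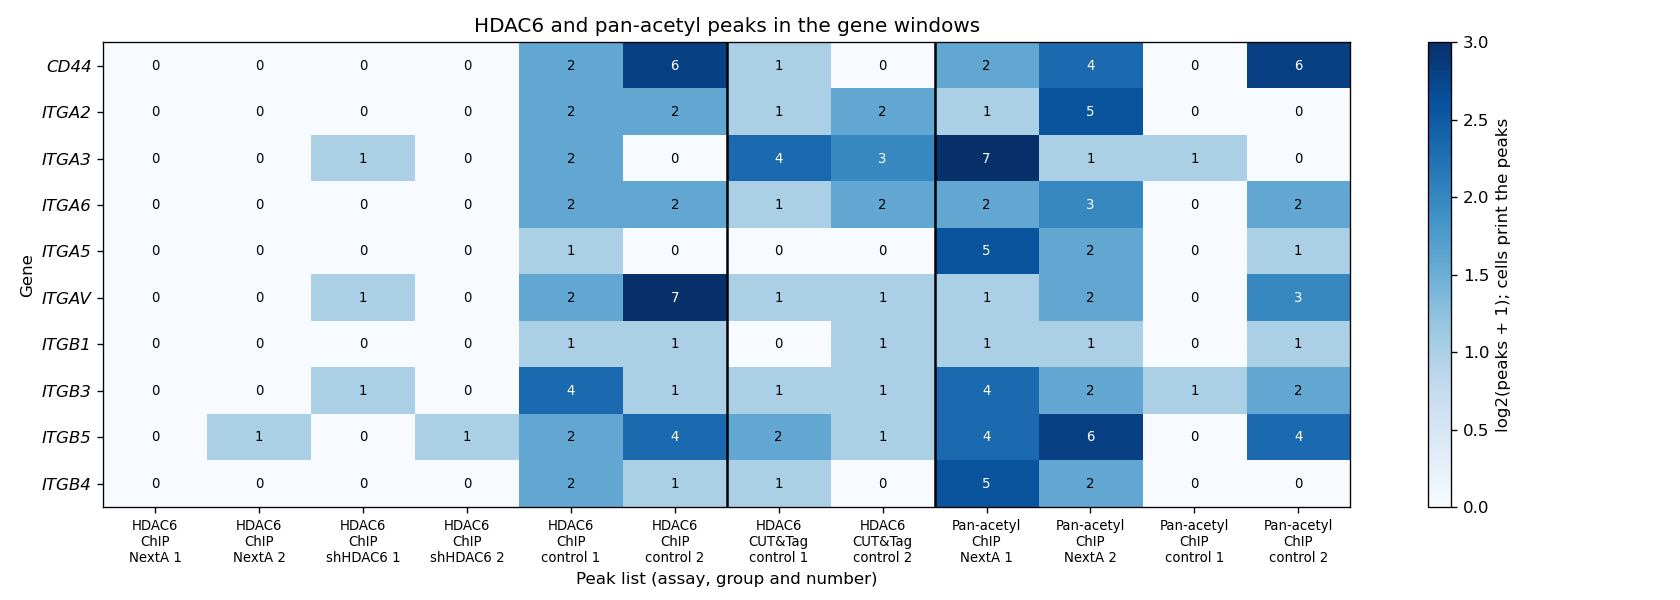
HDAC6 and pan-acetyl peaks in each gene window (printed in the cells; colour on a log2 scale) for 10 genes in 12 lists. The 4 HDAC6 ChIP columns of NextA and shHDAC6 hold 0 or 1 peak per gene, and pan-acetyl control list 1 holds 2 peaks in all.

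Pan-acetyl peaks numbered 32 and 28 in the 10 windows in NextA lists, against 2 and 19 in control lists. The starts of ITGA2, ITGA5 and ITGAV were gained with NextA, where 19.6% of all starts were, and none was lost (0%). ITGA2 (1 and 5 peaks with NextA, against 0 and 0 in control), ITGA5 (5 and 2, against 0 and 1) and ITGB4 (5 and 2, against 0 and 0) had more peaks (exact permutation two-sided p = 0.333, adjusted p = 1), where 26.4% of all genes did, and none had fewer (0.015%). At ITGB4, pan-acetyl peaks of both NextA lists lay on the ATAC regions at 32.6 and 43.5 kb, which GALK1 shares. The gained start peaks were strong in NextA list 1, at the 63rd percentile for ITGA2, 92.8th for ITGA5 and 98.8th for ITGAV. In NextA list 2 they were among the weakest, at 2.37, 1.06 and 1.01. Control list 1 held 1418 peaks in the whole genome and control list 2 held 41411. Within list 1 alone all 10 genes had more peaks (71.2% of all genes) and 8 starts were gained (52.6%). Within list 2 alone 6 genes had more (49.1%) and CD44 and ITGAV had fewer (16.7%). There 4 starts were gained (25.7%), and the start of ITGB1 and the outermost start of ITGB5 were lost (5.96%). The region over the inner ITGB5 starts had a pan-acetyl peak in both NextA lists and in control list 2. Leaving out control list 2 gave 9 genes with more, and leaving out NextA list 2 gave 7 starts gained. The shares of all genes with a list left out are not given, and calls are then easier to reach. With lists cut to equal length, or a −log10 q of at least 5, no gene was called. Equal length leaves at most 1418 peaks a list, and 75 peaks of NextA list 2 reach that q, so few calls were possible. ITGA3 carried the widest pan-acetyl peak of the set, 9.97 kb from chr17:50054498-50064464 in NextA list 1.

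Other genes of matrix adhesion, 83 in 6 lists of integrins, matrix ligands, adaptors, hyaluronan and ERM genes and hemidesmosome partners, were read by the same calls. With NextA, 58 of 83 had fewer HDAC6 peaks and 11 a start lost, beside 50.3% and 13.5% of all genes. By mean control percentile the lost starts were FERMT2 (kindlin-2, 89.6), CCN1, a matricellular ligand of integrins (88.2), DST (dystonin, 83.9), TLN1 (talin, 69.5), ITGA1 (68.8), ITGA7 (57.9), TNS2 (39.7), ITGA9 (37.1), RDX (radixin, 35.2), LAMC1 (30.2) and LAMA5 (9.59). Pan-acetyl starts were gained at 15 and 28 windows had more peaks, beside 19.6% and 26.4% of all genes. The 12 strongest gained starts, at most 4 from each list, had mean NextA percentiles between 35.6 at COL5A1 and 96.8 at PXN (paxillin), with ILK at 94.9, LAMB2 at 78.9 and PLEC (plectin) at 41. PolII with NextA changed no start of the 83, with more peaks in 1 window and fewer in 2 (5.75% and 0.706% of all genes), and ATAC with NextA changed no start, with more peaks in 1 window (1.85%). With shHDAC6, PolII windows had fewer peaks at 14 genes (10.2% of all genes) and more at none (3.5%), and ATAC windows more at 1 (0.596%) and fewer at 1 (1.59%). In shCtrl against control ATAC lists the starts of ITGB2 (the leukocyte beta subunit) and MSN (moesin, which links CD44 to actin) were lost (1.43% of all genes), that of FLNA was gained at a mean percentile of 0.0581 (0.29%), and 23 windows had fewer peaks (13.1%). In PolII the starts of ITGAX, LAMB3, TGFB1I1 and CEMIP were lost (1.22%) and that of BCAR1 gained (0.606%), with more peaks in 2 windows (8.94%) and fewer in 10 (4.78%).

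The genes whose start percentiles over the 32 lists were most like those of CD44 were SPDYE14 (Pearson r = 0.956), RTN2 (0.942) and EVA1C (0.934), given as a description. The points share libraries and the many lists without a peak count as 0. Of the 13 lists with a CD44 start peak, 8 also had one at SPDYE14, 13 at RTN2 and 10 at EVA1C, out of 9, 21 and 13 lists with a peak at those genes.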

How the data were processed

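The deposited peak lists were used as given, 1 per sample, with a fold over background (a linear ratio), a −log10 p, a −log10 q and a whole-number score for each peak, all made by the authors. Per the submitters' processing notes, the build was hg38 and the tools included MACS2 2.2.7.1 and Bowtie2 2.4.4, and also ChIPseeker 1.28.2, SAMtools 1.13, Trim Galore 0.6.7 and deepTools 3.5.1. Their roles and settings are not given in the sources used here. Gaps in the deposited peak numbering show that peaks were removed after calling in many lists, with 0.103% to 99.9% of numbers kept. The deposited score was not used.

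Repeated intervals were merged and chromosomes 1 to 22 and X kept (Python 3.11.15, pandas 2.3.3, numpy 2.4.6). Peaks overlapping a gene window by at least 1 bp were counted for 19974 RefSeq genes. A start was the strand's end for 15812 genes, the end with a peak in more lists for 3296 and both ends for 866. Where strand was known, that rule chose the right end in 88.5% of untied genes. Window counts were compared by exact permutation over lists with Benjamini-Hochberg adjustment over all genes. The call of more or fewer peaks was tried on simulated counts, with 3 lists against 3 and large changes in windows rich in peaks. That simulation did not cover 2 lists against 2, windows with few peaks, the p-values or their adjustment. As a check of pairing, ATAC NextA and control lists of the same number correlated by 0.669, 0.346 and 0.37 in their deviations. Lists 2 and 3 also correlated across numbers by 0.355 and 0.339, so pairing by number is not shown for them. The p-values of window counts did not use pairs, which entered only as an alternative. ATAC hairpin lists of the same number correlated by 0.0212, -0.0209 and -0.00559 and were not taken as pairs.

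Groups came from the labels. Members, gene lists and tests were chosen with earlier results of these data known. Named genes were the 10 members, up to 4 genes of each list with a start lost or gained in a comparison, and the 3 genes most like CD44. Alternatives were other window sizes, overlap, list length, a −log10 q floor, covered length, pairing and left-out lists. Some marker genes are not reported here.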

Additional observations from a re-analysis of the deposited data

How the results depend on the processing

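Counts here are of the 10 genes, as starts lost or gained and as windows with more or fewer peaks. The share of all genes called under each alternative is not given in this section. Calls are easier to reach with lists left out. Over 384 alternative values of 35 results, 318 kept within 1.5 times of the count and 66 moved. With a −log10 q of at least 5, HDAC6 starts lost and fewer windows, pan-acetyl starts gained and more windows, PolII NextA more, PolII shHDAC6 fewer, ATAC shCtrl starts lost and HDAC6 after knockdown went to 0, and PolII shCtrl fewer to 2. With equal list length the same HDAC6, pan-acetyl, PolII NextA more and ATAC shCtrl lost counts were 0, PolII shHDAC6 fewer 1, ATAC shCtrl fewer 2, PolII shCtrl lost 1 and more 2, and ATAC shCtrl gained 1. With 50 kb on each side, PolII shCtrl fewer was 3, ATAC shCtrl fewer 8, ATAC shHDAC6 fewer 2 and pan-acetyl more 5. With the gene body alone, pan-acetyl more was 5 and PolII shHDAC6 fewer 2. With covered length, pan-acetyl more was 8, and PolII shCtrl more 1 and fewer 5. For HDAC6 and pan-acetyl, equal length and the −log10 q floor leave so few peaks that a call was hardly possible. A start window of 500 bp left 1 HDAC6 start lost. The strongest peak of a gene, as the median over the 10 genes averaged over lists, stood at percentile 66.9 by fold and 68.2 by −log10 p. Counting a peak at any listed start gave 3 HDAC6 starts lost and no other change.

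Alternatives chosen after seeing the data were list 1 alone, the other lists alone, any listed start, all those of the shCtrl against control comparisons, and the gene body alone (3 genes) and the −log10 q floor for HDAC6 after knockdown. In lists numbered 1 alone, ATAC NextA more was 3 and fewer 2, PolII NextA more 7 and fewer 1, pan-acetyl more 10 and gained 8, and HDAC6 lost 6. In the other lists, ATAC NextA more was 1, PolII NextA more 3 and fewer 1, and pan-acetyl more 6, fewer 2 and lost 2. Against control lists not numbered 1, PolII shCtrl more was 1 and fewer 3. The replicate block (higher or lower in every pair) gave 6 pan-acetyl windows with more peaks and 2 PolII NextA windows with more, and changed no other count beyond 1.5 times. Same-numbered lists correlated by 0.458 in pan-acetyl, 0.637 in PolII NextA, 0.0748 in HDAC6 and 0.0127 in PolII shHDAC6, and with 2 pairs this does not show that the numbers pair the lists.

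Leaving out 1 list at a time gave 4 to 9 pan-acetyl more (9 without control 2), against 3 with all lists, 0 to 2 fewer, 3 to 7 gained (7 without NextA 2) and 0 to 1 lost (1 without control 1). HDAC6 starts lost ran from 2 to 6 (6 without control 2) and fewer from 8 to 10. PolII NextA more ran from 1 to 6 (6 without NextA 2) and fewer from 0 to 1. PolII shHDAC6 more ran from 1 to 2 (2 without shHDAC6 2), PolII shCtrl fewer from 1 to 5, more from 0 to 1 and lost from 2 to 3, ATAC NextA more from 0 to 1, ATAC shHDAC6 fewer from 0 to 1 (1 without shCtrl 1) and ATAC shCtrl fewer from 5 to 7. The cause of these moves was not tested, and sequencing depth behind the lists was not known.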
